A study of Drosophila melanogaster with 2 samples.

Results

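Summits of Eip74EF binding that lay in introns, 0.5 to 2 kb from a transcription start site, are described here for whole embryos of Drosophila melanogaster. Of the 5004 summits in the authors' IDR list of peaks, which was derived from both replicates, 772 (15.4%, exact 95% interval 14.4 to 16.5) met the rule. It asked that a summit lie inside a protein-coding gene, in no exon annotated by Ensembl, and 501 to 2000 bp from the nearest protein-coding transcription start site (TSS) on either side. The rule used position alone, so peak signal, replicate overlap and DNA sequence were not part of the choice. The remaining summits were 1255 deep intron summits beyond 2 kb, 2063 promoter summits within 500 bp of a TSS, 670 intergenic summits beyond 500 bp and 244 summits in exons or non-coding genes.

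Both samples were pools of male and female embryos, 8 to 16 h old, of a transgenic line, Eip74EF-GFP, that carries Eip74EF with enhanced green fluorescent protein (eGFP) at its C terminus. An antibody against the tag precipitated the sonicated chromatin. The labels give the samples as biological replicates 1 and 3, and they form 1 group. There is no second genotype, age or treatment, so no condition was compared, and whole embryos mix all cell types. The fusion protein and not the native protein was precipitated, and what drives the transgene is not stated in the labels.

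Eip74EF encodes transcription factors of the ETS family and is one of the early genes switched on by the steroid hormone ecdysone, whose pulses time the steps of fly development. ETS proteins bind short elements built around the letters GGAA. Introns, and the first intron above all, hold many of the enhancers of Drosophila genes, and an intron of one gene can hold the start site or the enhancer of another.

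Sequences are shown for the 3 members with the full ETS consensus, for 4 further members with the shorter core, and for CG11050, the second strongest member, as an example without it. Each line gives 101 bases of the dm6 plus strand centred on the summit, from RefSeq, with the ETS match in capitals. The strings searched were CCGGAAGT, GCGGAAGT and the core CGGAAG on both strands, so ACTTCCGG, ACTTCCGC and CTTCCG are the same elements read from the other strand, and both octamers contain the core.
Trf2, chrX:8412815-8412915: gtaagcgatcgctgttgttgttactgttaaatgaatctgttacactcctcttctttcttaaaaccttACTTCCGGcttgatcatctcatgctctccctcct
mRpS9 and wtrw, chr3R:7892461-7892561: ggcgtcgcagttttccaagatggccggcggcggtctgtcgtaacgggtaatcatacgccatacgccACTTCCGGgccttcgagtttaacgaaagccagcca
ClpX, chr3R:19902228-19902328: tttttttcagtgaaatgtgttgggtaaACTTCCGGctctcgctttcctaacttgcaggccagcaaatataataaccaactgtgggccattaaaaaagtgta
Dhc64C, chr3L:4824598-4824698: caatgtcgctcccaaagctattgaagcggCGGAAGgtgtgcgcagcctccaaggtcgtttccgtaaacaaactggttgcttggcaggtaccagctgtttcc
kel, chr2L:18136528-18136628: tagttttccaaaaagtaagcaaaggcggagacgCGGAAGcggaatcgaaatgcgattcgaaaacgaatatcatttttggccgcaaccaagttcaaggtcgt
Tlk, chrX:3723047-3723147: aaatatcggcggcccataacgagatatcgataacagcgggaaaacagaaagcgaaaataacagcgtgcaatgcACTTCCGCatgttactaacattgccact
Polr1D and brat, chr2L:19134470-19134570: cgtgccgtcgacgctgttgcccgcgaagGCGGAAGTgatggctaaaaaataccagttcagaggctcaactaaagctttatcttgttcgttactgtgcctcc
CG11050, chr2L:6612649-6612749: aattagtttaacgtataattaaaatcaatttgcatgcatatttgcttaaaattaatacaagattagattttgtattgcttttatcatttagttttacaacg

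The matches sat to either side of the summit, their centres at -18.5 bp in Dhc64C, -14.5 bp in kel and 26.5 bp in Tlk along the plus strand. The 3 consensus matches lay at 20.5 bp in Trf2, 19.5 bp in mRpS9 and wtrw and -19.5 bp in ClpX. The window of CG11050 is AT-rich, with 20.8% G or C, whereas that of Dhc64C held 54.5%.

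The strongest peak of the whole list was a member. It lay at chr3L:4824648 in the first intron of Dhc64C, which encodes the heavy chain of cytoplasmic dynein, 1039 bp downstream of the TSS. Its signal, the authors' own value per peak relative to their control, was 3792 in the IDR list, which is 13.4 times the list's median of 282.5. In replicate 1 alone the Dhc64C peak had a signal of 1275, in replicate 3 alone 2476, and it ranked first in both lists.

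The next strongest member lay in the second intron of CG11050, at 1012 bp downstream of a TSS, with signals of 1110 in replicate 1, 1923 in replicate 3 and 3027 in the IDR list. A summit in the first intron of ush, the fly friend-of-GATA cofactor, followed among the members with 985.4 in replicate 1, 1763 in replicate 3 and 2783 in the IDR list. Its nearest TSS, 1392 bp away, lies inside ush but is that of cbt, a zinc finger transcription factor gene, and not that of ush. These 3 members held ranks 1, 4 and 5 of all 5004 peaks.

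Trl, the gene of the GAGA factor, held the next member in its second intron, with 780.2 in replicate 1, 1325 in replicate 3 and 2112 in the IDR list. The one after it lay in introns of both HmgD and HmgZ, neighbouring genes of HMG-box chromosomal proteins, at 790.6 in replicate 1, 1159 in replicate 3 and 1946 in the IDR list. The other members of the strongest 12 lay in Hyls1 and chif (1901 in the IDR list), Lk6 (1894), CG32772 (1893), CG34038 (1875), kel (1817), Reph (1657) and simj (1625). Among their hosts, chif encodes the activating subunit of the Cdc7 replication kinase, Lk6 a kinase of the translation factor eIF4E, kel the Kelch protein of ring canals and simj a subunit of the NuRD chromatin complex. All 12 peaks were stronger in replicate 3 than in replicate 1, as were most members.

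Signals of the members ran from 184.9 to 3792 with a median of 292.2 and quartiles of 227.4 and 426.6. Median signals were 272.2 for deep intron, 290.3 for promoter and 271.3 for intergenic summits. Above the median of the list lay 410 members (53.1%), against 46.6% of deep intron summits (difference 6.50 percentage points, Fisher's exact test, two-sided, adjusted p = 0.0138 over 3 classes) and 46.6% of intergenic summits (adjusted p = 0.0227). Against promoter summits, of which 52.4% lay above it, the test gave an adjusted p of 0.735. Peaks are not replicates of an experiment, so these p-values, and all exact intervals given here, cover counting over regions only. Neither difference was called on the strongest peaks of replicate 3 alone, at 4.21 points against deep intron and 4.41 against intergenic summits (Fisher's exact tests, adjusted p = 0.145 for both). Within the stronger 2502 peaks of the list they were 2.02 points (exact test, adjusted p = 0.843) and -0.014 points (adjusted p = 1).

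Every member had a summit within 100 bp in at least 1 replicate's list, each of which holds 30000 peaks. In both lists there were 722 (93.5%), in replicate 1 only 20 and in replicate 3 only 30. Where a member was found, its signal ran from 22.1 to 1275 in replicate 1 (median 109.0) and from 32.9 to 2476 in replicate 3 (median 191.3). Over the 722, replicate 3 was higher by a median of 1.79 times, with quartiles of 1.51 and 2.14. How the scale of the signal was set in each list is not stated in the sources used here. As a description, Pearson's r of the log2 signals was 0.832 and Spearman's rho 0.763 across the 722 members, which share their 2 libraries. Paired summits lay a median of 24 bp apart. The authors derived the IDR list from these lists, so part of the overlap is built in.

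**Figure D1:**
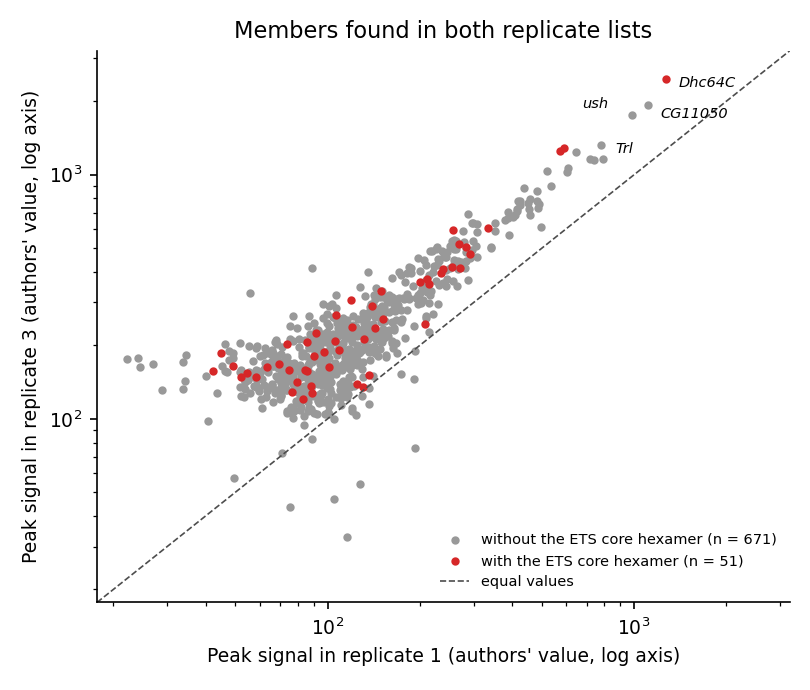
Signal of each member in replicate 1 (x axis) and replicate 3 (y axis), both authors' values on log axes, for the 722 members with a summit in both lists, with members that hold the ETS core hexamer in red. Most points lie above the line of equal values, with Dhc64C highest in both (1275 and 2476), and red points are spread over the whole range.

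A stricter count took as many of the strongest peaks of each replicate as the IDR list holds. In both of these shorter lists 554 members (71.8%) had a summit, against 65.7% of deep intron summits (difference 6.10 percentage points, Fisher's exact test, adjusted p = 0.0134), 66.4% of intergenic summits (adjusted p = 0.0446) and 68.2% of promoter summits (adjusted p = 0.0679). Replicate 1 alone held 611 members (79.1%) and replicate 3 alone 702 (90.9%). Of the 100 strongest members, 98 were in both. In 4 groups of 193 members from strongest to weakest, 190, 180, 133 and 51 were in both, a fall that choosing the strongest peaks of each replicate builds in part. With the full lists of 30000 peaks the signs turned, to -0.660 points against deep intron summits (Fisher's exact test, adjusted p = 0.566) and -1.55 against intergenic summits (exact test, adjusted p = 0.322). Against promoter summits the full lists gave 3.75 points, a call that the shorter lists did not give (exact test, adjusted p = 0.00508). With summits matched within 50 bp the differences from deep intron and intergenic summits were 4.01 and 4.0 points (exact tests, adjusted p = 0.121 and 0.136).

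Density was set against the bases that could hold a member. Such introns cover 9.93 Mb, and members lay there at 77.8 per Mb (72.4 to 83.5, exact Poisson 95% interval). Deep introns held 32.5 per Mb (30.7 to 34.4), so members were 2.39 times as dense, and intergenic bases held 20.1 per Mb. Promoters held 134.5 per Mb. Within introns the density over both sides went from 100.7 per Mb at 501 to 750 bp (87.2 to 115.7) to 67.4 at 1751 to 2000 bp (54.3 to 82.7), 52.5 at 2001 to 2250 bp (40.6 to 66.8) and 38.1 at 4751 to 5000 bp (25.1 to 55.4). The intervals on both sides of the 2 kb limit overlap. Upstream positions were at 124.0 per Mb against 87.8 downstream ones at 501 to 750 bp (intervals 99.3 to 153.0 and 72.3 to 105.7, which overlap). From 751 to 1750 bp downstream positions were the denser, and from 1751 to 2000 bp upstream ones (81.3 against 61.1 per Mb). Upstream and downstream values were 70.2 and 85.6 per Mb at 751 to 1000 bp and 58.5 and 88.3 at 1001 to 1250 bp. They were 56.0 and 67.9 at 1251 to 1500 bp and 65.8 and 66.7 at 1501 to 1750 bp. The upstream and downstream intervals overlap in each of these bins.

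**Figure D2:**
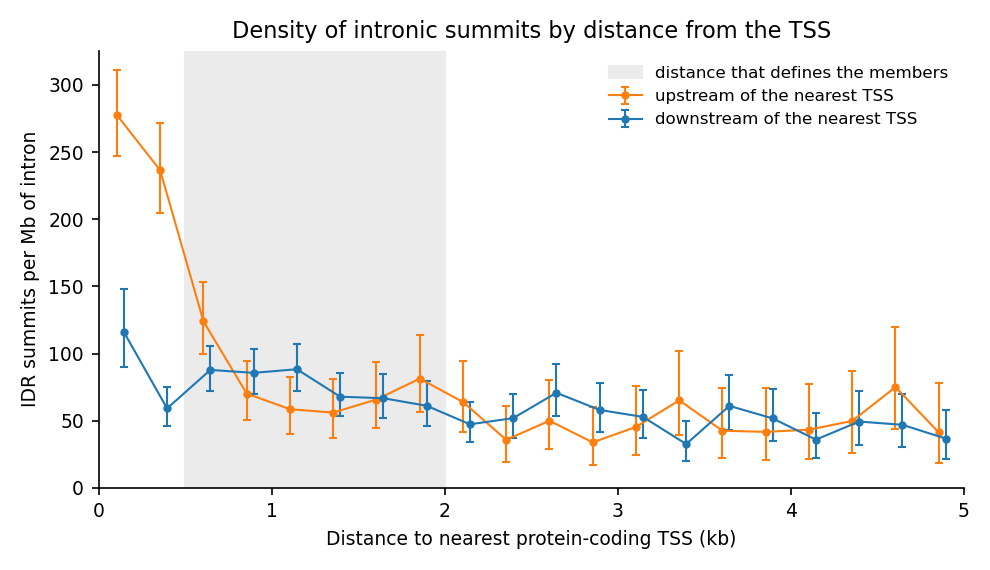
IDR summits per Mb of intron (y axis) in 250 bp bins of distance from the nearest protein-coding TSS (x axis, kb), upstream and downstream of it, with exact Poisson 95% intervals, and the members' distances shaded. Upstream density goes from 277.7 per Mb in the first bin to 41.2 in the last, while downstream density goes from 116.2 to 59.1 in the second bin, is 85.6 to 88.3 from 501 to 1250 bp and ends at 36.7.

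First introns held most members. A summit was counted in the lowest-ranking intron that holds it in any transcript of a gene. By this count 656 members (85.0%) were in a first intron, 92 in a second and 24 in a later one. First introns make up 66.4% of the bases that meet the rule, and the density was 99.5 per Mb there (92.0 to 107.4), 49.1 in second introns (39.6 to 60.2) and 16.5 in later ones (10.5 to 24.5). The 3 intervals do not overlap. Downstream of the nearest TSS lay 518 members (67.1%), and 67.4% of such bases lie downstream.

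For 710 members (92.0%) the nearest TSS belonged to a gene that holds the summit, as it does for 81.0% of the bases. Upstream of an own TSS, which means that another start of the same gene lies further out, the density was 110.4 per Mb (95.9 to 126.5), against 81.6 downstream of an own TSS (74.6 to 89.0). Where the nearest TSS was another gene's, it was 34.1 per Mb upstream (46 members) and 29.7 downstream (16 members). The ush summit near cbt is among the 46. Of the arms, X held 87.6 members per Mb of such bases, 3L 80.4, 2R 78.3, 3R 76.9, 2L 67.2 and the small chromosome 4 22.8, from 2 members, with exact intervals that all overlap between neighbours in this order.

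The ETS core was more frequent at member summits than beside them. The core CGGAAG lay within 50 bp of the summit in 60 members (7.77%, exact 95% interval 5.98 to 9.89). Windows of the same width, 400 bp to the left and right of the same summits, held it in 25 and 14 members (mean 2.53%), so it was 3.08 times as frequent at the summit. The exact McNemar test was two-sided, and of the p-values against each flank the larger, 0.000127, is given (adjusted p = 0.00228 over 18 strings). Over 84513 adjoining windows of this length that tile all introns meeting the rule, 2.28% held it. It was the only 1 of the 18 strings called higher (5.56% of the strings), and none was called lower. Adjusted over the panel, it was not called with windows of 25 bp (ratio 3.67, exact unadjusted p = 0.00289) or with flanks in introns only (ratio 3.29, exact unadjusted p = 0.00393). It was not called either on the strongest peaks of replicate 1 alone, where the ratio was 1.84 (exact p = 0.0759), and was made on those of replicate 3 alone (ratio 2.91, exact p = 5.08e-05).

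Matches to the core were packed near the summit. There were 62 in the 60 windows, 36 of them within 25 bp, at a median of 21 bp. By 50 bp bins along the reference strand, 41 matches fell in the bin just before the summit and 21 in the bin just after, against 4 to 16 in each of the other bins out to 500 bp.

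The longer form GCGGAAGT was found in 16 members (2.07%) and in 4 and 0 of the flanks, a ratio of 8.00 (exact McNemar p = 0.00754, adjusted p = 0.0678 over the panel). It was called higher over the panel on replicate 3 alone (exact McNemar test, adjusted p = 0.00879), with TSSs of any biotype (0.0232), with windows of 100 bp (0.0139) and with flanks 250 or 800 bp away (0.0118 for both). Among the 16 are the members of Tlk and of Polr1D and brat shown above. The full consensus CCGGAAGT was at 3 members (0.389%) and at 3 and 2 flanks, too few to tell apart (exact McNemar p = 1). The 3 differ in strength. In Trf2, the TBP-related factor gene, the signals were 139.8 in replicate 1, 289.8 in replicate 3 and 434.0 in the IDR list. In the introns of mRpS9, a mitochondrial ribosomal protein gene, and wtrw, a TRP channel gene, they were 109.1, 191.5 and 294.4. In ClpX, of a mitochondrial protease, they were 63.1 in replicate 1 and 188.7 in the IDR list, with no summit within 100 bp in replicate 3.

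Strings of other factors, each searched on both strands, did not pass with these windows. The homeodomain-type TAATTA was at 9.07% of members and 7.64% of flanks (exact McNemar test, adjusted p = 0.835), and over the tiles at 8.49%. With flanks 250 bp away, which held it at 5.05%, TAATTA was called higher (exact McNemar test, adjusted p = 0.0305). By the same exact test the nuclear receptor element AGGTCA was at 1.94% against 2.78% (adjusted p = 0.843), the ftz-f1-type CAAGGTCA at 0.130% against 0.389% (adjusted p = 1), and the Zelda-type CAGGTAG at 0.518% against 0.389% (adjusted p = 1). Repeats were less frequent at summits without passing, GAGAGAGA at 0.907% against 2.33% and CACACACA at 2.72% against 4.79% (adjusted p = 0.472 for both, exact McNemar tests over 772 members). In the stronger 2502 peaks CACACACA was called lower, at 0.976% of member summits and 5.73% of flanks (exact test, adjusted p = 0.00960). The remaining strings, E-box, GATA, DREF, AP-1, grainyhead, Mef2 and Su(H) types, had adjusted p-values of 0.787 to 1.

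**Figure D3:**
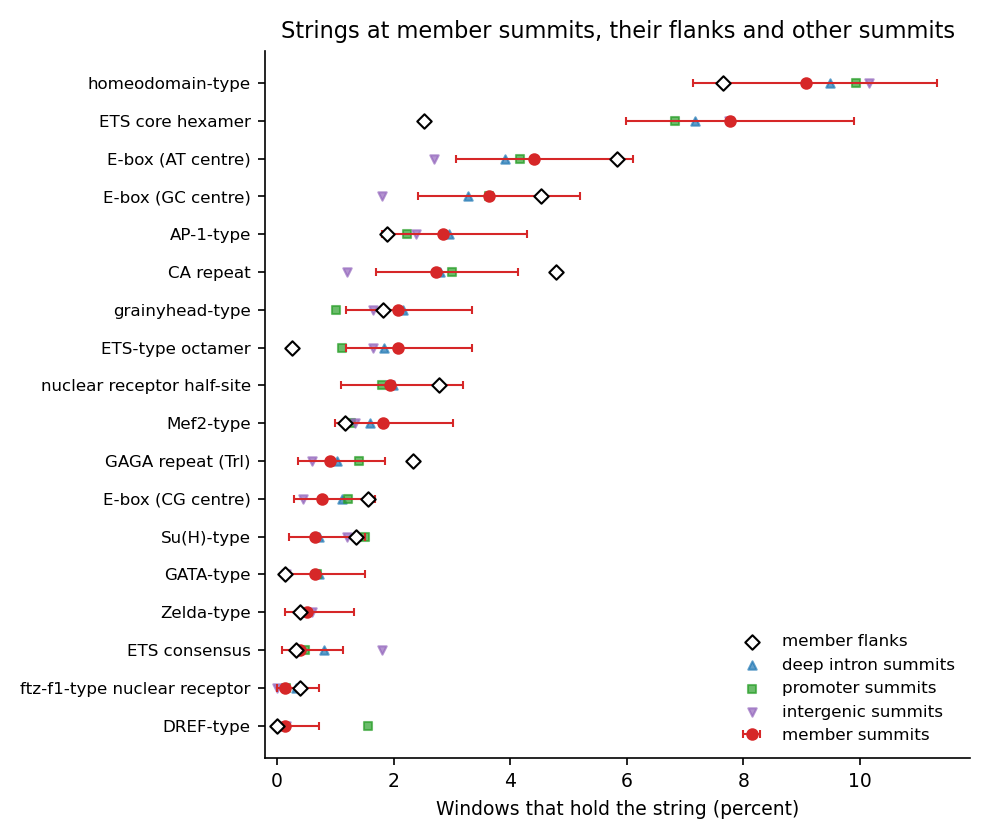
Share of windows that hold each of the 18 strings (x axis, percent) at member summits with exact 95% intervals, at the members' own flanks, and at deep intron, promoter and intergenic summits. The gap between member summits and flanks is widest in percentage points for the ETS core hexamer (7.77% against 2.53%), where other summits hold 6.83 to 7.76%, and DREF-type strings are at 1.55% of promoter summits against 0.130% of members.

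No difference in ETS strings between members and other classes was called, which does not show that the classes are alike. The core was at 7.17% of deep intron, 6.83% of promoter and 7.76% of intergenic summits (Fisher's exact tests, adjusted p = 1 for each over 54 tests). Only 1 of the 54 string differences was called (1.85%). It was the DREF-type palindrome TATCGATA, at 1 member (0.130%) and at 32 promoter summits (1.55%), a difference of -1.42 percentage points (Fisher's exact test, two-sided, adjusted p = 0.0306). DREF is a factor of promoters of growth and replication genes, and the string was also rare at deep intron (0.0797%) and intergenic summits (0.149%). In the stronger 2502 peaks this difference was -1.24 points with an adjusted p of 0.960, and within 25 bp of the summits -0.921 points with an adjusted p of 0.184, both by Fisher's exact test. The consensus CCGGAAGT was at 1.79% of intergenic summits and 0.389% of members (Fisher's exact test, adjusted p = 0.433). GCGGAAGT was at 2.07% of members, 1.83% of deep intron, 1.64% of intergenic and 1.11% of promoter summits (Fisher's exact test against promoter summits, adjusted p = 0.607).

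Member summits lay in dips of base composition. Within 50 bp of the summit 35.1% ± 9.82 (SD over 772 members) of bases were G or C, against 42.1% in the left and 41.4% in the right flank. This is 6.64 percentage points less at the summit (exact sign test, two-sided, the larger of the p-values against each flank 7.12e-23), and 418 members (54.1%) were below both flanks. The tiles held 38.9%. Many flanks reach exons or promoters. For the 363 members with both flanks in introns and beyond 500 bp of a TSS, the difference was -5.26 points (exact sign test p = 8.43e-09). Deep intron summits had 35.2%, promoter summits 37.0% and intergenic summits 33.8%.

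**Figure D4:**
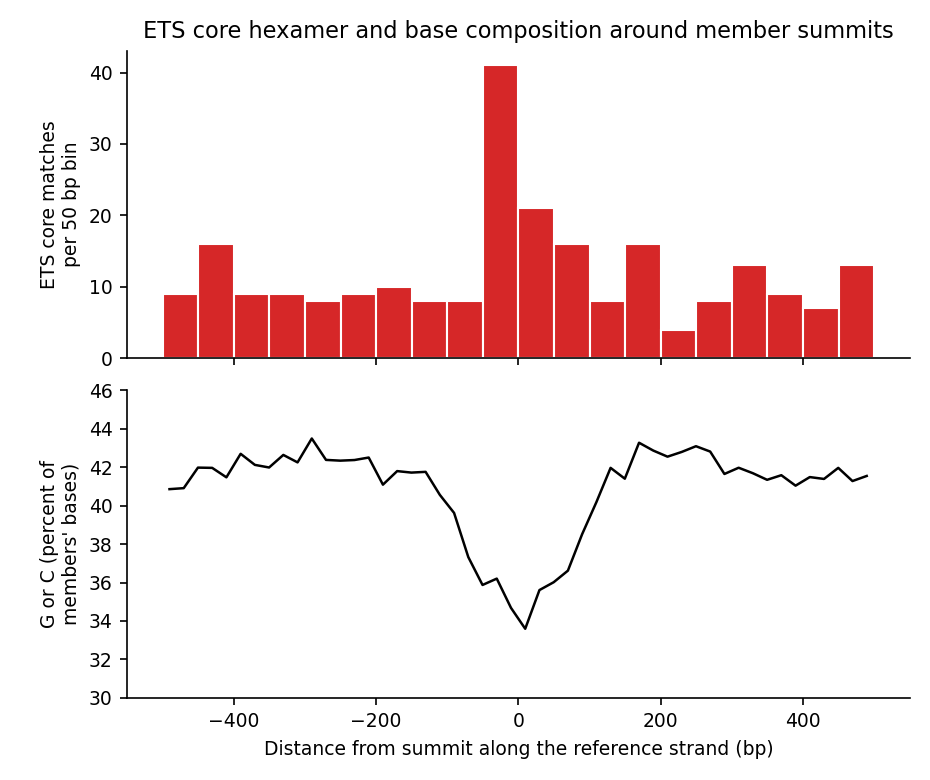
ETS core matches per 50 bp bin (upper panel, y axis) and percent of G or C bases over the 772 members in 20 bp bins (lower panel, y axis, from 30%), by distance from the summit along the reference strand (x axis, bp). Core matches peak in the 2 bins at the summit (41 and 21) where G or C bases fall to 33.6%.

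The scan of all 2080 hexamers, counted on both strands, followed this composition. At the summits 50 were called higher (2.4%) and 15 lower (0.721%), with 266 at an unadjusted p under 0.05. Of the 50, 49 had at most 1 G or C base and 27 had none. The lowest p was that of ATTTTA, at 25.6% of members and 12.6% of flanks (exact McNemar test, adjusted p = 1.85e-07). All 15 that were lower had at least 4 G or C bases, such as GCAGCA at 3.37% against 9.46% (exact McNemar test, adjusted p = 0.000147).

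The exception among the 50 was CGGAAG (exact McNemar test, adjusted p = 0.00904 over all hexamers), with 4 G or C bases. Among the 60 hexamers made of the same bases it had the highest ratio of summit to flank, 3.08. The next had 1.83, and the median of the others was 0.633. With flanks confined to introns, which leaves 363 members, CGGAAG lost this call (exact McNemar test, adjusted p = 0.565 over all hexamers), with a ratio of 3.29 (unadjusted exact p = 0.00393). The 1 hexamer then called was AATAAT, at 21.5% of these members and 9.64% of flanks (exact test, adjusted p = 0.0380). The core also lost its call over all hexamers in the stronger 2502 peaks (exact test, adjusted p = 0.190), on replicate 1 alone (0.482) and with windows of 25 bp (0.182). These strings overlap each other, so counts of hexamers are not counts of separate elements.

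Among the members themselves no contrast passed its test. Members with the core had a median signal of 293.9 and those without it 291.6. In the 4 groups from strongest to weakest, the core was at 20, 11, 15 and 14 of 193 members, and the mean share of G or C was 32.9, 34.7, 35.6 and 37.2%. Above the list's median lay 54.6% of the 656 first intron members and 44.8% of the 116 in later introns (Fisher's exact test, p = 0.0556, adjusted p = 0.612 over 11 contrasts chosen after the data were examined). Up- and downstream members (medians 295.9 and 291.1) and those up to and beyond 1 kb (293.5 and 291.2) gave adjusted p-values of 0.879 and 0.885 for the same measure. None of the 11 passed, which does not show that the groups are alike.

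The 772 members lay in 663 genes, 7.32% of the 9062 protein-coding genes with bases that meet the rule. Single members were in 540 genes, 93 genes held 2 and 30 held more (21 with 3, 2 with 4, 5 with 5, 1 with 6 and 1 with 7). For 63 members more than 1 gene holds the summit, and the deposited lists do not say which gene a peak belongs to. Another member lay within 1 kb of 117, and 30 shared a peak interval with another member. Of the host genes, 325 (49.0%) also had a promoter summit, against 17.0% of the 8399 genes with such bases and no member. A deep intron summit was in 205 host genes (30.9%), a share that was not counted for other genes. The number of start sites and the length of introns in these groups of genes were not compared, and their part in the shares was not tested.

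CG1677, a long gene at chrX:7281089-7405797 that contains several others, held the most members, 7. Of these, 2 were nearest to unc-119, 3 to CBP, 1 to Dok and 1 to brk, the gene of the repressor Brinker of the Dpp pathway. The Dok summit was strongest at 1234 in the IDR list (484.1 in replicate 1 and 733.9 in replicate 3), and the brk summit, 710 bp upstream of its TSS, had 362.2 (146.7 and 223.3). None of the 7 was nearest to a TSS of CG1677 itself.

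CHES-1-like, a fork head transcription factor gene, held 6 members in first introns and was the nearest gene for all of them. Their signals in the IDR list were 1112, 1095, 1003, 735.3, 275.8 and 247.3. In replicate 1 the values were 408.5, 386.6, 352.6, 234.8, 137.0 and 101.2 in the same order. Replicate 3 had 682.9, 702.6, 636.5, none within 100 bp, 133.9 and 163.0. Of the 6, 4 were thus over 2.6 times the median of the list.

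Each of 5 further genes held 5 members. Tlk, the Tousled-like kinase gene, ranged from 272.8 to 621.3 in the IDR list, and its strongest summit carries the GCGGAAGT element shown above (235.0 in replicate 1 and 397.0 in replicate 3). Svil, for the actin-binding supervillin, ranged from 249.4 to 703.8, Ptpmeg2, a tyrosine phosphatase gene, from 218.9 to 452.9, Kank from 190.7 to 650.2 and CG32264 from 187.8 to 260.4. The last therefore had no member above the median of the list.

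Among genes of the ecdysone response, 8 of the 24 with bases that meet the rule held 10 members. The share of 33.3% compares with 7.32% for all genes, but the median listed gene has 3.57 kb of such bases and the median of all genes 0.379 kb, and per 100 kb the list held 9.45 members against 7.78. ImpL2, the gene of a secreted insulin-binding protein, had the strongest at 702.5 in the IDR list (240.2 in replicate 1 and 468.3 in replicate 3). A second ImpL2 summit of the same peak interval had 232.7 (49.4 and 57.4).

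Hr4, a nuclear receptor gene of the ecdysone cascade, had 2 summits 1782 and 1982 bp downstream of its TSS, with 500.1 (183.8 in replicate 1 and 309.3 in replicate 3) and 375.0 (132.5 and 260.1). The summit in the intron of br, the broad gene of early BTB zinc finger factors, had 393.6 (134.3 and 262.5). It lay nearest to Mur2B, a mucin gene that overlaps br and also holds the summit. Eip63E, of a cyclin-dependent kinase, had 330.3 (137.0 and 188.5). All of these but the second ImpL2 summit were above the median of the IDR list.

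The others were below it. They lay in tai, of a coactivator of the ecdysone receptor, with 253.5 (81.6 in replicate 1 and 166.1 in replicate 3). Eip75B, an early nuclear receptor gene, had 224.1 (88.7 and 175.4). The zinc finger gene crol had 206.8 (73.7 and 131.7), and Blimp-1, of an ecdysone-induced repressor, 203.0 (52.0 and 134.5). The receptor gene EcR and the genes Hr3, ftz-f1 and Eip78C had such bases and no member, and its partner usp had none of these bases. Eip74EF itself had 3.30 kb of them and no member. Of the 8 ETS genes, aop, which encodes the repressor Yan, held 1 member at 216.5 (71.3 and 153.7) 986 bp upstream of a TSS. None of the 11 had the ETS core within 50 bp of the summit. It was at 7.77% of all members, so 11 are too few to tell a difference from that share.

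Signalling genes held members at several levels of their pathways. Of the EGFR, Ras and MAPK pathway 7 of 26 genes did, 26.9% against 7.32% of all genes, with 15.2 members per 100 kb of such bases against 7.78. The median gene of this list and of the Dpp list has 1.5 kb of these bases, that of all genes 0.379 kb. Among the 7 EGFR pathway genes was the adaptor gene drk, at a summit nearest to the TSS of mars. Its signals were 714.2 in the IDR list, 271.5 in replicate 1 and 441.1 in replicate 3. S for Star, which exports the ligand (499.1, 182.0 and 323.3), and the inhibitor gene sty (470.6, 156.4 and 306.0) came next. The others were the ligand gene Krn, the gene aos of a secreted inhibitor, the phosphatase gene Mkp3 and the repressor gene cic. Of the Dpp pathway 4 of 15 did (26.7%, 16.9 members per 100 kb), with the transducer gene Mad at 687.3 (267.1 and 409.4), 4 members in shn, of a zinc finger cofactor, 2 of them at 424.3 (152.4 and 287.2) and 394.0 (131.8 and 263.7), and others in the receptor gene tkv and the inhibitor gene Dad.

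Of the insulin and TOR genes 4 of 17 held a member (23.5%, 24.3 per 100 kb). The hypoxia factor gene sima had the strongest at 594.7 in the IDR list (185.0 in replicate 1 and 416.8 in replicate 3), Pdk1, of a kinase below the insulin receptor, had 393.6 (96.7 and 296.4), S6k 227.4 (71.4 and 150.9), and the receptor gene InR 2 further members. Of the Notch genes 1 of 15 did, neur, of the ubiquitin ligase of Delta (370.0, 131.8 and 246.5), and of the Wingless genes 2 of 18, the kinase gene sgg (348.6, 121.3 and 241.8) and the co-receptor gene arr (197.0, 61.1 and 145.2). A member in Ggt-1 was nearest to Wnt5 (316.7, 118.8 and 218.2). The Notch share of 6.67% is near the 7.32% of all genes, and per 100 kb the Notch list held 3.18 and the Wingless list 4.61 members, against 7.78 overall.

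Genes of several tissues held members. Of the muscle list 5 of 25 genes held a member, or 20% against 7.32% of all genes, and 4.67 members per 100 kb of such bases against 7.78. The strongest were in the fusion genes kirre (558.9 in the IDR list, 206.4 in replicate 1 and 351.8 in replicate 3), mbc (476.1, 164.7 and 309.7) and rols (244.7, 99.2 and 146.0). The kirre summit also lay inside the overlapping gene CG32795, whose TSS was the nearest. Of the tracheal list 4 of 13 did, led by rib (509.5, 213.8 and 298.7), followed by sty, by crb (340.5, 131.4 and 212.2), whose window holds the ETS core, and by verm. Of genes of neurons and glia 5 of 25 did. In brat, of a translational repressor, the 3 members had 1184 (454.3 and 725.3), 478.5 (149.7 and 333.8) and 393.4 (none within 100 bp in replicate 1 and 297.9 in replicate 3). The last 2 hold the core. Of epidermal genes 3 of 19 did, crb, cora (333.6, 174.0 and 152.0) and grh (192.2, 58.6 and 134.6), and of the gut list 1 of 15, fog (262.4, 58.9 and 198.4). The fog summit also lay inside the overlapping gene CG42346 and was nearest to its TSS. Per 100 kb of such bases the tracheal list held 15.6 members, neurons and glia 10.5, epidermis 6.85 and gut 2.64, against 7.78 overall.

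Of other transcription regulators 6 of 24 genes held 12 members, 25% against 7.32% of all genes. Their median of such bases is 3.91 kb a gene, against 0.379 kb, and their density 10.2 members per 100 kb, against 7.78. They include ush described above, tna at 481.2 in the IDR list (170.9 in replicate 1 and 314.1 in replicate 3) and crp at 448.0 (151.8 and 316.2). Hsp83, the gene of the Hsp90 chaperone, had the only member of its list (1 of 5 genes) at 696.6 (242.0 and 458.4). Of the cell death list 2 of 9 did, Diap1, of the caspase inhibitor, with 693.8 (216.3 and 484.8) and 317.4 (86.6 and 239.6), and scyl with 221.6 (63.5 and 163.0) and the core in its window. The clock list had 2 of 11, Pdp1 at 465.1 (165.3 and 295.1) and sgg. Motor and cytoskeletal genes had 2 of 19, Dhc64C and shot, the latter with 3 members, the strongest at 231.9 (96.8 and 146.7). Per 100 kb the cell death list held 23.7 members, from 3 in all, the clock list 5.85 and the motor and cytoskeletal list 7.64.

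No member lay in the 14 homeotic genes and cofactors, 14 autophagy genes, 9 glycolysis genes and 48 cytosolic ribosomal protein genes that have such bases. These bases add up to 30.4 kb, 11.2 kb, 6.32 kb and 13.0 kb, beside an overall density of 7.78 members per 100 kb. In all, 55 listed genes held a member. The lists differ in intron length, share genes and were chosen with earlier results known, so no test of a list was made.

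**Figure D5:**
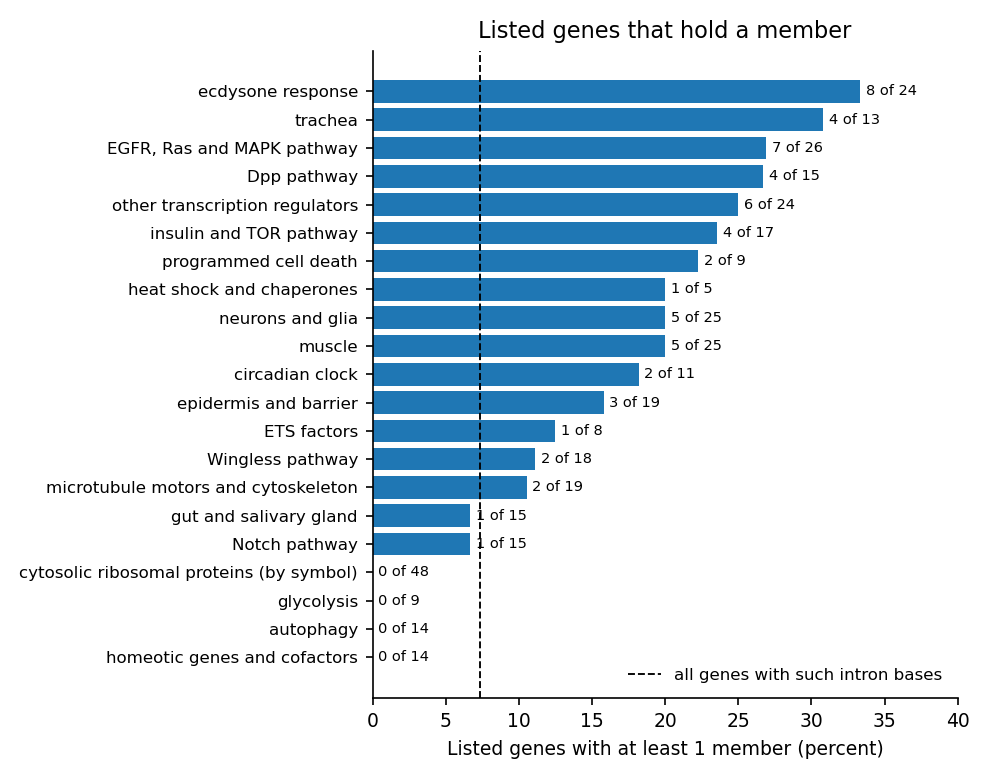
Percent of listed genes that hold at least 1 member (x axis) for 21 gene lists (y axis), over genes with bases that meet the rule, with counts beside each bar and the share of all genes (7.32%) as a dashed line. The ecdysone response list is highest at 8 of 24, and 4 lists have none.

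Just inside the inner limit lay summits in pyd at 501 bp (194.2 in the IDR list) and Pdp1 at 502 bp (465.1), and just outside it summits in Rtnl1 at 494 bp (201.5) and Ada2b at 489 bp (1019). Just inside the outer limit lay RhoGAP18B at 1998 bp (370.8) and Aldh-III at 1994 bp (317.2), and just outside it Dys at 2003 bp (297.2) and a summit in CG4576 and rec at 2003 bp (188.9). Of the members, 21 (2.72%) lay within 500 bp of a TSS of some other biotype, such as a non-coding RNA.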

How the data were processed

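Chromatin of 2 samples of the same line was precipitated with an antibody against GFP after sonication to 200 to 800 bp, per the labels' protocols. The age of 8 to 16 h is that of the labels' source name, since their own age field is not plausible. The authors called peaks for each replicate and for both pooled, on dm6 and with a control, and made the IDR list from them, per the deposited file descriptions. No aligner, peak caller or IDR threshold is given in the sources used here. The deposited lists give intervals, a signal relative to the control, a −log10 q-value (deposited, not used here) and a summit offset. Tracks of signal were not used here, nor read counts, so sequencing depth is unknown, and 2 samples show little of how embryos vary. Nothing in the labels says whether the replicates came from separate collections.

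Summits, at the interval start plus the offset, were placed on Ensembl release 115 (BDGP6.54, the same assembly as dm6), arms 2L, 2R, 3L, 3R, 4 and X. Exons of any biotype, transposable elements included, were left out of introns. The replicate lists hold 30000 peaks each. Replicate summits were matched within 100 bp. Strings were sought within 50 bp of a summit and in windows 400 bp to each side. Exact McNemar, sign and Fisher tests were two-sided, with Benjamini-Hochberg adjustment over 18 strings, 2080 hexamers, 54 string comparisons or 3 classes and a threshold of 0.05. Intervals are exact (Clopper-Pearson or Poisson, 95%). The string tests were tried on simulated windows, made by shuffling the bases of flank windows. Summit and flank windows there had the same base composition, unlike those of the members, so the effect of that difference was not tested. Python 3.11.15, numpy 2.4.6, scipy 1.17.1, pandas 2.3.3 and matplotlib 3.10.9 were used.

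Named are the 12 strongest members, the 5 host genes with most members (7 with ties), members at ecdysone response or ETS genes, up to 3 per other list, those with CCGGAAGT, and 2 to each side of each distance limit; further genes of a list are named for completeness of its count. The members, strings and lists were chosen with earlier results of these data known. Alternatives were 14 settings of peak list, replicate, TSS definition, window, flank, matching distance and signal threshold.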

Additional observations from a re-analysis of the deposited data

How the results depend on the processing

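Of 145 values recomputed under 14 alternative settings, 87 kept their direction, their side of the threshold or their range, and 34 counts or shares moved. For 16 the p rose above 0.05 without a change of sign, and for 2 it fell below. A further 6 changed sign, and the p of some of these rose above 0.05 too. In these counts p was unadjusted for the ETS strings and the G or C content and adjusted for differences between classes. They are therefore not counts of calls over the panel. Where no cause is named, the cause was not tested. The deficit of G or C at summits and, except with replicate 1 alone, the excess of the core CGGAAG kept an exact p under 0.05 in every setting tried for them, though the core did not pass over the panel with windows of 25 bp or flanks in introns only.

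Leaving out a replicate (the strongest peaks of the other) gave 14.4 to 16.2% of summits as members, a core ratio of 1.84 to 2.91 and 0 to 2 panel strings called, and signal differences of 4.21 to 6.32 points against deep intron, -1.94 to 2.15 against promoter and 4.41 to 6.98 against intergenic summits.

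In the stronger 2502 peaks, fewer by construction, the density was 41.3 per Mb, 2 panel strings, 25 higher and 5 lower hexamers and 0 class differences were called, and 31 listed genes held a member. Signal differences were 2.02 points against deep intron, -3.66 against promoter and -0.014 against intergenic summits, and replicate differences 1.52 against deep intron and 0.815 against intergenic summits.

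With TSSs of any biotype 16.5% of summits were members, at 66.4 per Mb, 82.0% in first introns and 63.3% downstream, with 2 panel strings called and a replicate difference of 5.00 against promoters, which gained a call (exact test, adjusted p = 0.00811). With gene 5′ ends only these were 12.2%, 87.0 per Mb, 90.2% and 86.6%, with 3 class differences called and replicate differences of 4.13 against deep intron and 5.10 against intergenic summits.

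Windows of 25 bp gave a GCGGAAGT ratio of 6, 0 panel strings, 13 higher and 2 lower hexamers and 0 class differences; windows of 100 bp gave 2, 85 and 56. Flanks at 250 bp gave 3 panel strings and 32 lower hexamers, those at 800 bp 2, 30 higher and 2 lower. Flanks in introns only, with fewer members, gave a GCGGAAGT ratio of 14.0, 0 panel strings, 1 higher and 0 lower hexamer.

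Matching summits within 50 bp gave replicate differences of 4.01 against deep intron and 4.0 against intergenic summits. Full replicate lists gave -0.660, 3.75 against promoters, which gained a call (exact test, adjusted p = 0.00508), and -1.55. At the upper quartile of signal the differences were 4.12, -1.54 and 3.20 points. No paired analysis was possible because there is only 1 group. The peaks carry no read counts, so a depth limit could not be set.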

Other observations

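Of the strongest 10 peaks of the list 3 were members, of the strongest 100 16 were, and of the strongest 1000 160 were (16%), beside 15.4% of all. The distance from the TSS had a median of 1058 bp, with quartiles of 736 and 1488 bp. Another summit of the list lay within 1 kb of 214 members (27.7%), and for 204 (26.4%) the nearest TSS had its own promoter summit. Neither share was counted for summits of the other classes, so they are not shown to be particular to members.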
